A study of Mus musculus with 20 samples.

Results

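The genes described here form one arm of insulin-like growth factor (IGF) signalling: the receptors Igf1r and Insr, the docking proteins Irs1 and Irs2, and the binding proteins Igfbp2, Igfbp3, Igfbp4, Igfbp5, Igfbp6 and Igfbp7. They were taken by gene symbol, and all 10 were found among the 54986 genes of the deposited table. They were selected on their levels and fold changes in the comparisons below, so their own values are given as a description, and no p-value is printed for any of them. All libraries came from NMuMG, a non-transformed epithelial line of the mouse mammary gland, in 10 conditions of 2 libraries each. Parental NMuMG cells were compared with NMuMG treated with TGFβ and with NMuMG silenced for hnRNP E1 (the protein of Pcbp1) by shRNA, called E1KD, a silencing that induces epithelial–mesenchymal transition (EMT). M1P and L1P are cell lines isolated from the primary tumor and from lung metastases after E1KD cells were injected into the mammary fat pad of immunodeficient NOD/SCID mice, and both therefore carry the hnRNP E1 shRNA. NMuMG carrying an empty vector were compared with clone 12 and clone 16, each of which overexpressed the long noncoding RNA Platr18 (listed as Lncenc1). E1KD cells given a scrambled shRNA, written E1KD SCR, were compared with E1KD cells with a Platr18 shRNA (E1KD Platr18 KD). Each overexpressing line is 1 clone, M1P and L1P were grown in culture after selection, and nothing says that the 2 libraries of a condition came from separate cultures, so their spread may be technical.

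IGF1 and IGF2 bind the receptor tyrosine kinase IGF1R, and insulin binds the related INSR. The activated receptors phosphorylate IRS1 and IRS2, which dock PI3-kinase and so pass the signal to AKT, mTOR and the FOXO factors. Secreted binding proteins hold IGFs away from the receptor and are cleaved by proteases, and IGFBP7 differs from the others in its weak affinity for IGFs. In the mammary gland this system regulates growth and the survival and involution of the epithelium.

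Promoter windows are shown for Igfbp4, Igfbp3 and Irs1, the 3 genes whose condition means spanned the widest range. Each is the 250 bases before a RefSeq transcript start on GRCm38.p6, read 5′ to 3′ on the gene's strand, with CG dinucleotides in capitals. The windows are chr11:99040994-99041243 on the plus strand for Igfbp4, chr11:7213924-7214173 on the minus strand for Igfbp3 and chr1:82291440-82291689 on the minus strand for Irs1.
Igfbp4: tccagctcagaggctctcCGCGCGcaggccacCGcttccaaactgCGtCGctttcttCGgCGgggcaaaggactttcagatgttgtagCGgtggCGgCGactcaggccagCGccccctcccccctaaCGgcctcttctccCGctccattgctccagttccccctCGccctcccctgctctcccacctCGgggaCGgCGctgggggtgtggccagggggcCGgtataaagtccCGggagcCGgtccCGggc
Igfbp3: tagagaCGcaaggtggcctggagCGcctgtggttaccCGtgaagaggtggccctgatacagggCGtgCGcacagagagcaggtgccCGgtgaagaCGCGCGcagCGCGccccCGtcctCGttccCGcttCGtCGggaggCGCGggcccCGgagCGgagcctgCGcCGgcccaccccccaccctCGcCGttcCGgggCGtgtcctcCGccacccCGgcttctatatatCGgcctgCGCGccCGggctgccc
Irs1: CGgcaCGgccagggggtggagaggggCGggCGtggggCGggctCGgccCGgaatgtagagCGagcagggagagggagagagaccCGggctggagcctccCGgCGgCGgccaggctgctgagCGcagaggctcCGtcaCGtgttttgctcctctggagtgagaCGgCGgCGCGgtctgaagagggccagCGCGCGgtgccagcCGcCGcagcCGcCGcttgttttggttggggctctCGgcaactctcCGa
They hold 22, 32 and 28 CG dinucleotides and 69.2%, 73.2% and 72.4% G or C, in that order. RefSeq windows were matched for 9 of the 10 genes (10 windows, since Igfbp2 has 2 starts), with a median of 24 CG dinucleotides and 70.8% G or C. The medians over all 32851 windows were 6 and 52.4%. The motifs were searched on both strands, each separately: GTAAACA for FOXO factors, CAGACA for SMAD factors and the E-box CAGGTG. They were present in 3.17%, 17.1% and 17.2% of all windows. Of the 10 windows 1 held any of them, the Igfbp3 window, with CAGGTG beginning 172 bases before the start.

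Most low values were whole multiples of 1 read, which gave the number of reads each library was scaled to. The libraries fell into 2 kinds that the labels do not name. In the 5 conditions from parental cells to lung metastasis and TGFβ (the progression libraries) this number was 50.8 to 60.0 M and the mitochondrial rRNA gene mt-Rnr2 was at 333 to 492 CPM, the deposited unit, which is reads scaled to a common library total. In the Platr18 and empty-vector libraries it was 63.0 to 147 M and mt-Rnr2 was at 113874 to 165149 CPM. Levels were therefore compared only within a kind. These are bulk RNA samples, in which fewer cells expressing a gene and less RNA per cell cannot be told apart. At these depths 3 reads were worth 0.0204 to 0.0591 CPM, and values at or under that were not read as expression. E1KD replicate 1 stood apart: its genes were a median of 0.29 log2 units above those of replicate 2, against at most 0.07 in either direction between the replicates of any other condition. The targeted genes followed the labels. Pcbp1 was at 14.2 to 16.6 CPM in E1KD against 287 to 312 CPM in NMuMG, and at 3.28 to 3.46 CPM in E1KD SCR against 32.3 CPM in both empty-vector libraries. Lncenc1 was at 3092 to 3096 CPM in clone 12, 813 to 820 CPM in clone 16 and 3.06 to 3.68 CPM with the empty vector, and it was at 0.136 to 0.170 CPM in E1KD Platr18 KD against 2.92 to 3.10 CPM in E1KD SCR. Of 5 mammary epithelial markers, 4 (Cdh1, Krt8, Krt18 and Krt19) were above 1 CPM in every condition, whereas Epcam was listed at 0 in 18 of 20 libraries.

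Differences were fitted with limma on log2(CPM + 1), a scale on which the change of genes near 1 CPM or less is understated. To be past the limits a gene needed a p, before adjustment, under 0.001 together with a log2 fold change of 1 or more in size. Of the 10 genes, 8 passed the filter of 1 CPM in at least 2 libraries. Igfbp2 and Igfbp5 did not, and Igfbp6 passed it through the 2 E1KD Platr18 KD libraries alone. In E1KD against NMuMG 3 of the 8 were past the limits, Igfbp3 higher and Igfbp4 and Irs1 lower, where 9.44% of all 17106 genes tested were. Upon TGFβ treatment 4 were, Igf1r, Igfbp3 and Igfbp7 higher and Igfbp4 lower, against 13.5% of all genes. None of the 8 was past the limits in M1P against E1KD (3.59% of all genes) or in L1P against M1P (1.21%). At an unadjusted p under 0.05 in limma, 4 of the 8 were counted in the first of these, where 56.2% of all genes were, and 6 in the second, where 29.0% were. In E1KD SCR against the empty vector Irs1 and Igfbp4 were past the limits, both lower (2 genes, against 5.98% of all genes). Over both Platr18 clones Irs1 and Igfbp3 were past them, both lower (2 genes, against 1.46%). Clone 12 alone had 1 gene past the limits (Irs1, against 3.65%) and clone 16 had 2 (Irs1 and Igfbp3, against 1.78%), while between the clones 1 gene was (Igfbp7, against 4.38%). In E1KD Platr18 KD against E1KD SCR 1 gene was past them, Irs1, which was higher (1.48% of all genes). Since the genes were picked with these comparisons known, nothing is read from these counts. Several comparisons also share libraries: E1KD and TGFβ share NMuMG, E1KD SCR and the clones share the empty vector, and consecutive steps share E1KD or M1P.

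**Figure D1:**
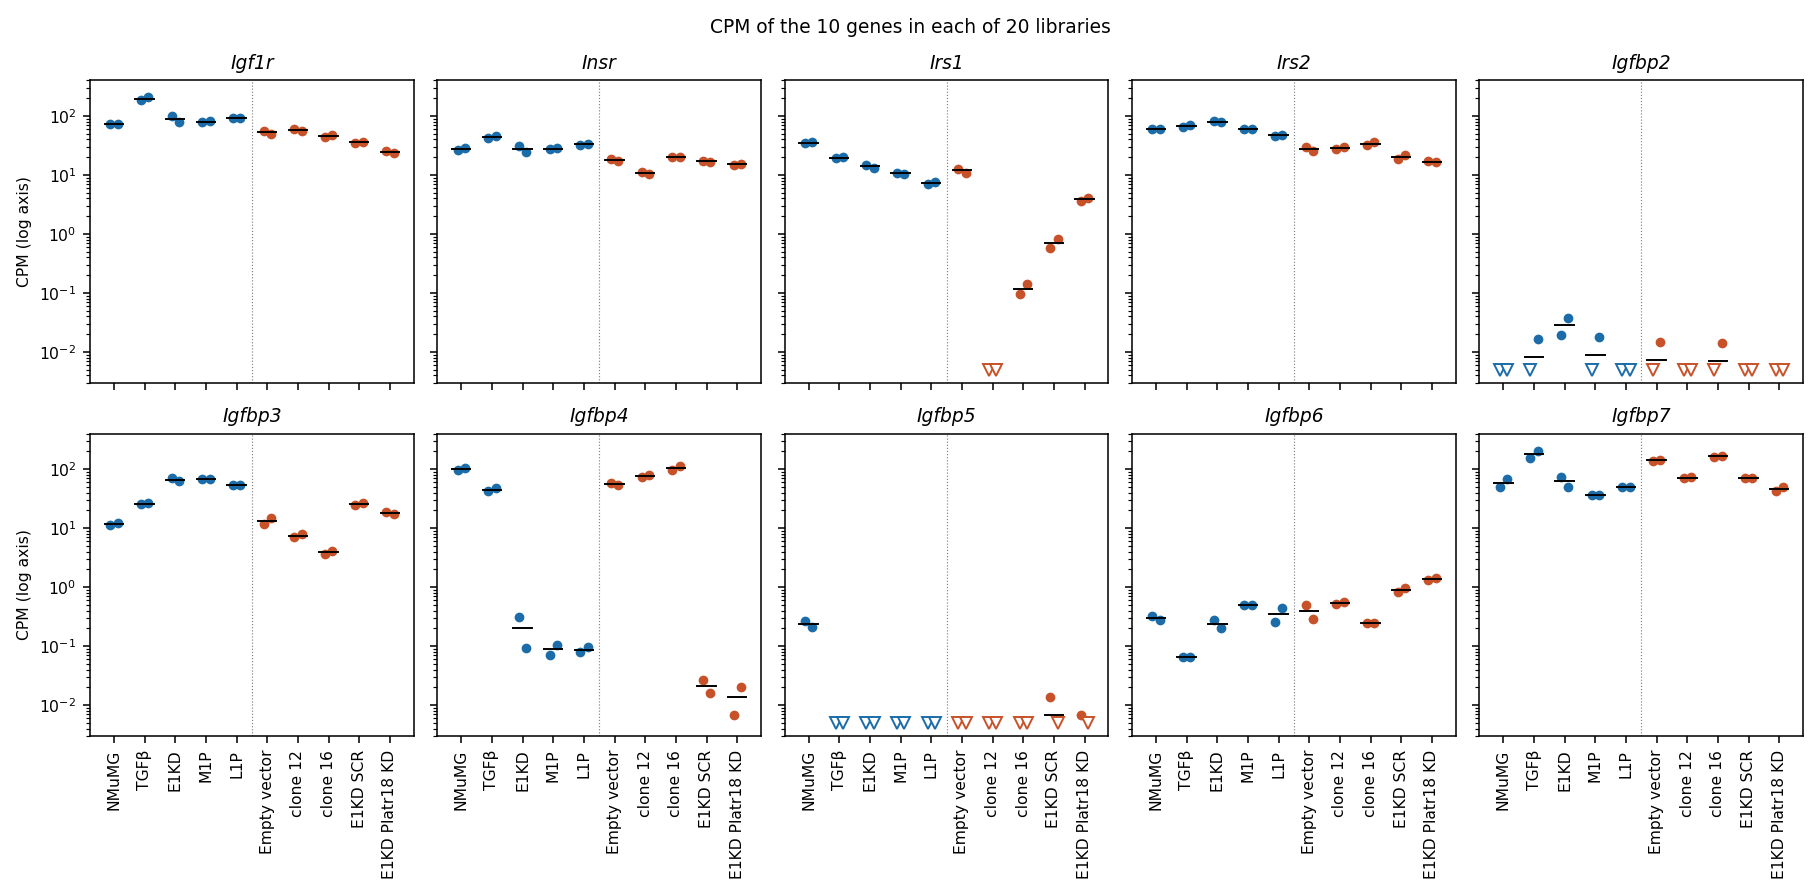
CPM of each gene on a log axis, 2 points per condition and a black line at their mean; blue marks the progression libraries (NMuMG to L1P), orange the Platr18 and empty-vector libraries, and open triangles at the bottom mark libraries listed at 0. Igfbp4 dropped from 97.5 and 105 CPM in NMuMG to 0.315 and 0.0924 CPM in E1KD, and Irs1 was listed at 0 in both libraries of clone 12.

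Igf1r, the receptor for IGF1 and IGF2, lies on chromosome 7 from 67952827 to 68233668. It was at 71.3 and 73.5 CPM in NMuMG and at 184 and 205 CPM upon TGFβ treatment, 2.68-fold higher (log2 fold change 1.41, SE 0.10). No TGFβ library overlapped any other progression library. E1KD libraries held 99.8 and 80.1 CPM, those of M1P 77.8 and 80.7 CPM and those of L1P 93.0 and 93.5 CPM, all above NMuMG, with M1P and L1P both overlapping the range of E1KD. The E1KD difference was 0.30 (SE 0.10) where the median of all genes was 0.17. In the other kind of library Igf1r stood at 55.8 and 48.6 CPM with the empty vector and at 34.9 and 36.5 CPM in E1KD SCR, a difference of -0.53 (SE 0.10). It was at 25.4 and 23.7 CPM in E1KD Platr18 KD, below E1KD SCR in both libraries (-0.52, SE 0.10). Clone 12 held 59.3 and 55.4 CPM and clone 16 held 43.4 and 47.2 CPM, so that the empty vector lay between them and clone 12 overlapped it.

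Insr, the insulin receptor, lies on chromosome 8 from 3122061 to 3279617. It was at 26.6 and 28.3 CPM in NMuMG and at 42.0 and 46.1 CPM with TGFβ, 1.60-fold higher and short of the limit (0.66, SE 0.09). E1KD (30.4 and 24.5 CPM) and M1P (27.5 and 28.1 CPM) overlapped NMuMG, and L1P was at 32.1 and 33.8 CPM. Among the Platr18 and empty-vector libraries clone 12 had the lowest Insr, 11.1 and 10.5 CPM, and clone 16 the highest, 19.99 and 20.32 CPM, a difference between the clones of 0.84 (SE 0.09). Per kb of exon, Igf1r RNA exceeded Insr RNA in all 20 libraries. The ratio was 2.19 and 2.13 in NMuMG, 3.59 and 3.64 with TGFβ, 2.69 and 2.68 in E1KD, 2.48 and 2.28 with the empty vector, 4.38 and 4.31 in clone 12 and 1.39 and 1.29 in E1KD Platr18 KD. Within the second kind of library clone 12 therefore had the highest ratio and E1KD Platr18 KD the lowest.

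Irs1, the first insulin receptor substrate, lies on chromosome 1 from 82233101 to 82291416. It was at 34.1 and 35.5 CPM in NMuMG and 19.04 and 20.06 CPM with TGFβ. In E1KD, M1P and L1P it was at 14.8 and 13.2, 10.9 and 10.3, and 7.12 and 7.56 CPM, in that order. No condition overlapped another among the progression libraries, and each step from NMuMG to E1KD, M1P and L1P was to a lower level. E1KD was 2.48-fold below NMuMG, past the limits (-1.25, SE 0.10), and L1P was 4.74-fold below it. The TGFβ difference (-0.80, SE 0.10) and the steps from E1KD to M1P (-0.37, SE 0.10) and from M1P to L1P (-0.48, SE 0.10) stayed short of them.

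In the Platr18 libraries the differences of Irs1 were wider. The empty-vector libraries held 12.8 and 10.9 CPM. Clone 12 was listed at 0 in both libraries and clone 16 held 0.0970 and 0.140 CPM, that is 7 and 10 reads, which is 100-fold below the empty vector. E1KD SCR held 0.582 and 0.826 CPM (43 and 52 reads), 16.9-fold below the empty vector (-2.92, SE 0.10). E1KD Platr18 KD held 3.58 and 4.11 CPM, 5.46-fold above E1KD SCR (1.51, SE 0.10) and 3.09-fold below the empty vector. Irs1 was thus lower in both clones and in both E1KD lines than with the empty vector. Beside the empty vector (Lncenc1 3.06 to 3.68 CPM), Irs1 was lower in both clone 16 (Lncenc1 813 to 820 CPM) and clone 12 (3092 to 3096 CPM). The fitted difference of Irs1 between the clones, clone 16 minus clone 12, was 0.16 (SE 0.10), short of the limits. It rests on 7 and 10 reads against 0, with 1 clone at each level of Lncenc1, so no graded order is read from it. Of the E1KD lines, E1KD Platr18 KD (Lncenc1 0.136 to 0.170 CPM) had more Irs1 than E1KD SCR (2.92 to 3.10 CPM). E1KD SCR had about as much Lncenc1 as the empty vector, but differed from it in hnRNP E1 silencing and in the added vectors. The part of Lncenc1 in the Irs1 values was not tested. None of the 5 conditions overlapped another. An antisense neighbour, Gm9747, overlaps Irs1 and reached only 0.0512 CPM.

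Irs2, the second substrate, lies on chromosome 8 from 10984681 to 11008458 and varied far less than Irs1. It was at 60.5 and 59.3 CPM in NMuMG, 64.4 and 68.9 CPM with TGFβ, and 82.6 and 77.3 CPM in E1KD. M1P held 59.1 and 60.3 CPM, within or beside the range of NMuMG, and L1P 46.0 and 47.5 CPM, below it. In the other kind it ranged from 16.4 CPM in E1KD Platr18 KD to 35.4 CPM in clone 16, and no comparison passed the limits. Per kb of exon, Irs2 RNA was 2.57 and 2.41 times that of Irs1 in NMuMG, 8.05 and 8.44 times in E1KD and 9.33 and 9.09 times in L1P. With the empty vector the ratio was 3.34 and 3.35. It was 46.2 and 38.3 in E1KD SCR, 6.99 and 5.76 in E1KD Platr18 KD and 474 and 366 in clone 16, and could not be given for clone 12. Irs2 RNA was thus above that of Irs1 in every library.

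**Figure D2:**
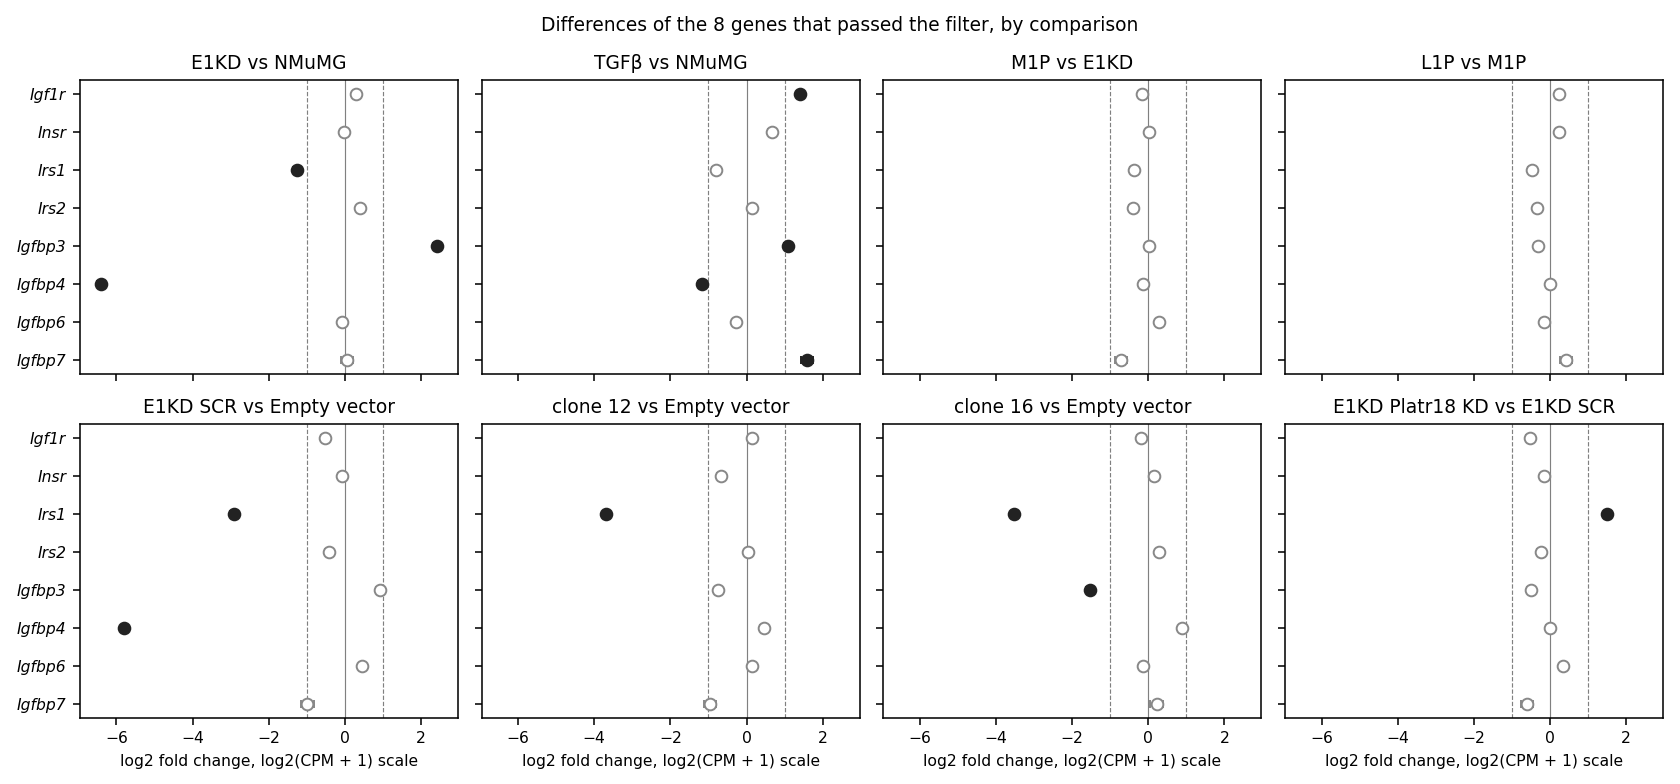
Log2 fold changes (points) with standard errors (bars, mostly hidden by the points) of the 8 genes that passed the filter, by comparison; filled points are past both limits and dashed lines mark a log2 fold change of 1 in either direction. Igfbp4 lies at -6.41 in E1KD and -5.79 in E1KD SCR, and Irs1 at -3.68 in clone 12, -3.52 in clone 16 and 1.51 upon Platr18 silencing.

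Igfbp4, a binding protein known mainly as an inhibitor of IGF action and cleaved by the protease PAPP-A, lies on chromosome 11 from 99041244 to 99054392, just downstream of the first window above. It was at 97.5 and 105 CPM in NMuMG and at 0.315 and 0.0924 CPM in E1KD (16 and 5 reads), 497-fold lower. The 2 E1KD values differ from each other, and both are far from NMuMG. M1P held 0.0698 and 0.106 CPM and L1P 0.0785 and 0.0971 CPM, 4 to 6 reads a library, within the range of each other. Upon TGFβ treatment Igfbp4 was at 42.1 and 47.0 CPM, 2.27-fold below NMuMG (-1.17, SE 0.10) and 219-fold above E1KD. In the other kind of library it was at 57.1 and 53.9 CPM with the empty vector and at 2 and 1 reads in the E1KD SCR libraries (0.0271 and 0.0159 CPM), for which the fitted -5.79 (SE 0.10) depends on the constant added before the logarithm. E1KD Platr18 KD held 1 and 3 reads. The clones went the other way, with 72.9 and 79.3 CPM in clone 12 and 98.2 and 111 CPM in clone 16, above the empty vector without overlap but short of the limits (0.45 and 0.90, SE 0.10 each). All 10 libraries of cells silenced for hnRNP E1 were thus at 0.315 CPM or less and all 10 others at 42.1 CPM or more. M1P and L1P came from injected E1KD cells, and E1KD SCR and E1KD Platr18 KD were E1KD cells given a further shRNA. These may therefore not be separate silencings, and a loss carried by a silenced line cannot be told apart from an effect of the silencing.

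Igfbp3, the main carrier of IGFs in serum and a known target of TGFβ, lies on chromosome 11 from 7206086 to 7213923. It was at 11.15 and 12.05 CPM in NMuMG, 25.3 and 26.2 CPM with TGFβ and 71.0 and 61.9 CPM in E1KD, 5.73-fold above NMuMG (2.42, SE 0.10). The TGFβ difference of 1.09 (SE 0.10) was just past the limit. M1P at 67.1 and 66.7 CPM lay within the range of E1KD, and L1P was lower than both at 53.6 and 54.0 CPM. With the empty vector Igfbp3 was at 11.7 and 14.8 CPM and in E1KD SCR at 24.9 and 26.8 CPM, 1.96-fold higher and just short of the limit (0.93, SE 0.10). Both clones were below the empty vector, clone 12 with 6.95 and 8.01 CPM (-0.74, SE 0.10) and clone 16 with 3.69 and 4.05 CPM (-1.54, SE 0.10). E1KD Platr18 KD held 18.5 and 17.3 CPM, below E1KD SCR and above the empty vector. The order of Igfbp3 over the Platr18 libraries was therefore E1KD SCR, E1KD Platr18 KD, empty vector, clone 12 and clone 16, with no overlap between neighbours.

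Igfbp7, also called angiomodulin, lies on chromosome 5 from 77349240 to 77408041. It was at 50.2 and 67.0 CPM in NMuMG and at 155 and 202 CPM with TGFβ, 3.05-fold higher (1.59, SE 0.16). E1KD, at 74.1 and 49.4 CPM, spanned the range of NMuMG, while M1P (36.8 and 36.2 CPM) and L1P (48.8 and 49.0 CPM) were below it. With the empty vector it was at 139 and 142 CPM, and it was at 71.2 and 72.0 CPM in clone 12, 162 and 166 CPM in clone 16, 69.8 and 71.8 CPM in E1KD SCR and 43.0 and 49.6 CPM in E1KD Platr18 KD. Clone 16 was 2.29-fold above clone 12, past the limits (1.18, SE 0.16), and E1KD SCR (-0.98, SE 0.16) and clone 12 (-0.96, SE 0.16) were just short of the limit against the empty vector. Igfbp7 overlaps Polr2b on the opposite strand, a gene at up to 117 CPM, and whether the counting used strand is not given in the sources used here. The part of Polr2b reads in these values was not tested.

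The other 3 binding proteins were low. Igfbp6, which binds IGF2 by preference, lies on chromosome 15 from 102144362 to 102149511 and was at 0.319 and 0.283 CPM in NMuMG against 4 reads (0.0668 and 0.0666 CPM) in each TGFβ library. It was at 0.493 and 0.290 CPM with the empty vector, 0.826 and 0.953 CPM in E1KD SCR and 1.34 and 1.42 CPM in E1KD Platr18 KD, its highest values among these libraries. Igfbp5, a protein of mammary involution on chromosome 1 from 72857932 to 72874884, had 15 and 11 reads in NMuMG (0.266 and 0.207 CPM) and at most 1 read in each of the 18 other libraries. Igfbp2, its neighbour from 72824503 to 72852474, had at most 2 reads in any library and was listed at 0 in 14. The 2 genes lie 5457 bases apart with their 3′ ends facing and 0 listed genes between them, and neither was expressed above 0.266 CPM in any library.

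Taken per kb of exon, so that the genes could be compared, the makeup of binding protein RNA differed between conditions. In NMuMG Igfbp7 made up 61.5% and 66.5% of it, Igfbp4 32.7% and 28.5% and Igfbp3 5.28% and 4.62%. In E1KD Igfbp3 made up 26.9% and 32.5% and Igfbp4 0.0846% and 0.0344%, and in M1P the share of Igfbp3 was 41.0% and 41.2%, the highest of the progression libraries. With TGFβ Igfbp7 made up 87.9% and 89.7%, and the sum was 146 and 186 CPM per kb against 67.5 and 83.3 CPM per kb in NMuMG. In the other kind Igfbp7 was between 73.9% and 87.2% of the sum in every library. There Igfbp4 was at 9.80% and 9.06% with the empty vector, 21.1% and 22.3% in clone 12 and 14.1% and 15.3% in clone 16. These shares use the union of annotated exons (GENCODE M21) as length, and isoforms in use may be shorter.

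**Figure D3:**
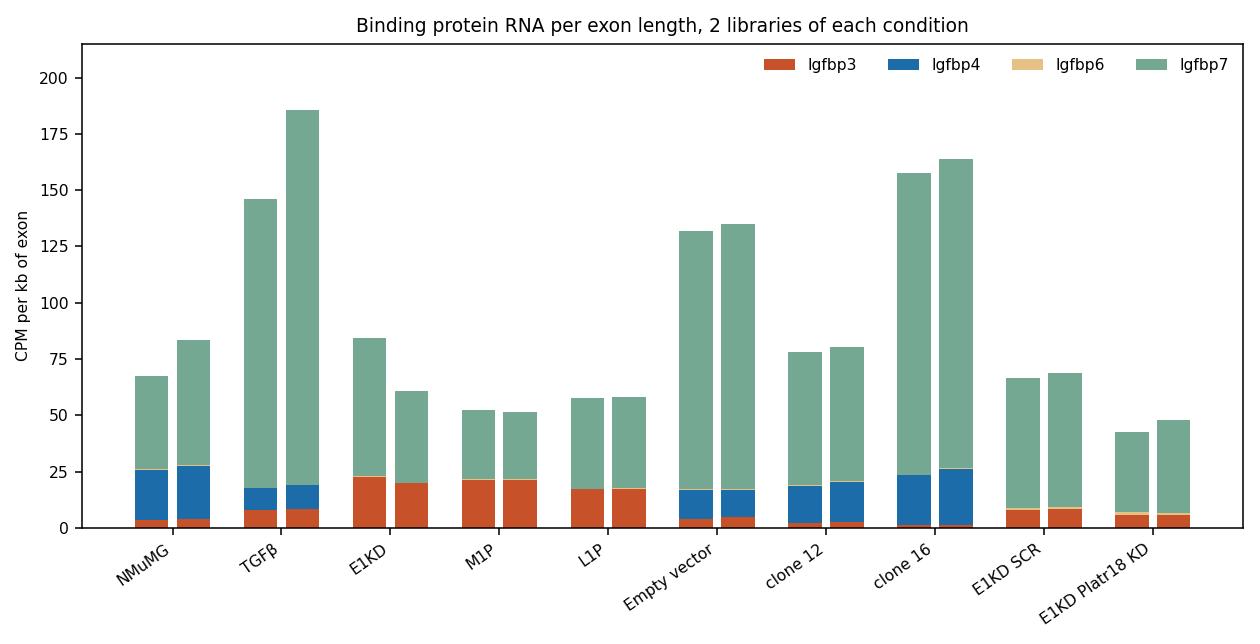
Stacked bars of CPM per kb of exon for Igfbp3, Igfbp4, Igfbp6 and Igfbp7, 1 bar per library; Igfbp2 and Igfbp5 are too low to be drawn. The blue part (Igfbp4) is visible in NMuMG, TGFβ, empty vector and both clones and missing from the 5 conditions silenced for hnRNP E1, and the TGFβ bars reach 146 and 186 CPM per kb.

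Of 70 other genes listed for the pathway by role, 52 passed the filter. The list was made with earlier results of these data known, so the p-values of its genes carry that limit. All 4 ligand genes were close to silent: Ins1 and Ins2 were listed at 0, Igf1 reached 0.0140 CPM and Igf2 1.07 CPM. In E1KD against NMuMG 5 of the 52 rose and 1 fell past the limits, where 9.44% of all genes tested passed them. Igf2r, the receptor that clears IGF2, rose from 2.64 and 2.83 CPM to 48.9 and 28.4 CPM (limma log2 fold change 3.36, SE 0.16, Benjamini-Hochberg adjusted p = 3.46e-10). Htra3, a secreted protease with an IGFBP-like domain, rose from 1.13 and 0.849 CPM to 17.5 and 13.5 CPM (3.04, SE 0.12, adjusted p = 3.12e-11). Gab1, a docking protein (1.38, SE 0.11), and Crim1, a membrane protein with an IGFBP-like domain (1.22, SE 0.12), also rose. Igf2, named after its value was seen, rose from 1 read in each NMuMG library to 1.07 and 1.03 CPM (1.01, SE 0.08). Stc2, a stanniocalcin that inhibits PAPP-A, fell from 6.99 and 6.51 CPM to 2.68 and 2.00 CPM (-1.22, SE 0.09), while Pappa itself did not exceed 0.0739 CPM in any library.

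Igf2r and Htra3 also rose in E1KD SCR against the empty vector. E1KD SCR were E1KD cells given a further shRNA, so the 2 comparisons may not be separate silencings. A change carried by the silenced line cannot be told apart from an effect of the silencing. Igf2r went from 5.68 and 5.63 CPM to 83.0 and 82.1 CPM (3.65, SE 0.16, adjusted p = 2.01e-10) and Htra3 from 0.603 and 0.449 CPM to 7.38 and 8.42 CPM (2.54, SE 0.12, adjusted p = 3.62e-10). Stc2 (-1.61, SE 0.09) and the adaptor Shc1 (-1.05, SE 0.08) fell, and the other 48 did not pass, where 5.98% of all genes did. Igf2r overlaps the antisense RNA Airn, which reached 6.36 CPM, and reads of the pair may not be told apart without strand. The test of the difference between the 2 silencing comparisons did not pass the limits for Igf2r (-0.29, SE 0.23, adjusted p = 0.375), Stc2 (0.39, SE 0.13, adjusted p = 0.05001) or Htra3 (0.50, SE 0.17, adjusted p = 0.0475). In the same test Igf2 (0.84, SE 0.11, adjusted p = 6.88e-05), Crim1 (0.89, SE 0.17, adjusted p = 0.0020) and Gab1 (0.66, SE 0.16, adjusted p = 0.0075) stayed short of a difference of 1. Their adjusted p was lower, and in E1KD SCR they differed less from the control (0.16, 0.33 and 0.72).

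Upon TGFβ treatment 3 of the 52 rose and 3 fell, where 13.5% of all genes passed the limits. Crim1 (1.33, SE 0.12), the adaptor Dok1 (1.30, SE 0.11) and Foxo3 (1.07, SE 0.08), a transcription factor that AKT keeps out of the nucleus, rose. The mTOR inhibitor Deptor (-1.33, SE 0.11), the insulin receptor inhibitor Grb14 (-1.29, SE 0.13) and Foxo6 (-1.17, SE 0.12) fell. In M1P against E1KD 1 rose and 2 fell, where 3.59% of all genes passed. Stc1, the other stanniocalcin, rose (1.10, SE 0.07) and Stc2 (-1.21, SE 0.09) and Foxo6 (-1.19, SE 0.12) fell. In L1P against M1P 2 rose and 1 fell, where 1.21% of all genes passed. Stc1 rose further, from 3.68 and 3.46 CPM to 27.8 CPM in both libraries, 7.79-fold (2.66, SE 0.07, adjusted p = 1.80e-11). Grb14 rose by just the limit (1.00, SE 0.13) and Trib3, a pseudokinase that binds AKT, fell (-1.05, SE 0.09). The 4 leukocyte markers summed to 5.56 to 6.85 CPM over M1P and L1P against 1.85 to 2.72 CPM in E1KD, and the 4 lung epithelial markers to at most 0.213 CPM in M1P and L1P. The leukocyte markers did not move together. In E1KD, M1P and L1P, Lyz2 averaged 0.221, 3.05 and 4.65 CPM and Cd68 2.03, 2.68 and 1.93 CPM. Ptprc and Cd3e averaged at most 0.0616 CPM in each of these lines. The part of other cells in the Stc1 values was not tested.

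Over both Platr18 clones, where 1.46% of all genes passed the limits, 1 of the 52 fell, Stc2 (-1.15, SE 0.08), but the clones differed for it. It was listed at 0 in both libraries of clone 12 against 4.59 and 4.29 CPM with the empty vector, and was at 5.06 and 4.97 CPM in clone 16. The clones also differed from each other in further genes. In clone 16 Stc2 (2.59, SE 0.09) and Foxo6 (1.01, SE 0.12) were higher and Deptor (-1.27, SE 0.11) and Enpp1, an inhibitor of the insulin receptor (-1.20, SE 0.10), were lower than in clone 12. Against the empty vector itself, Grb14 fell in clone 12 (-1.01, SE 0.13) and Enpp1 fell in clone 16 (-1.52, SE 0.10). In E1KD Platr18 KD against E1KD SCR limma called 0 of the 52, where it called 1.48% of all genes. Of the 52, 19 had an unadjusted p under 0.05 in limma, where 30.7% of all genes did. The median log2 fold change of the 52 was between -0.23 and 0.21 over these comparisons, where that of all genes tested was between -0.17 and 0.17.

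**Figure D4:**
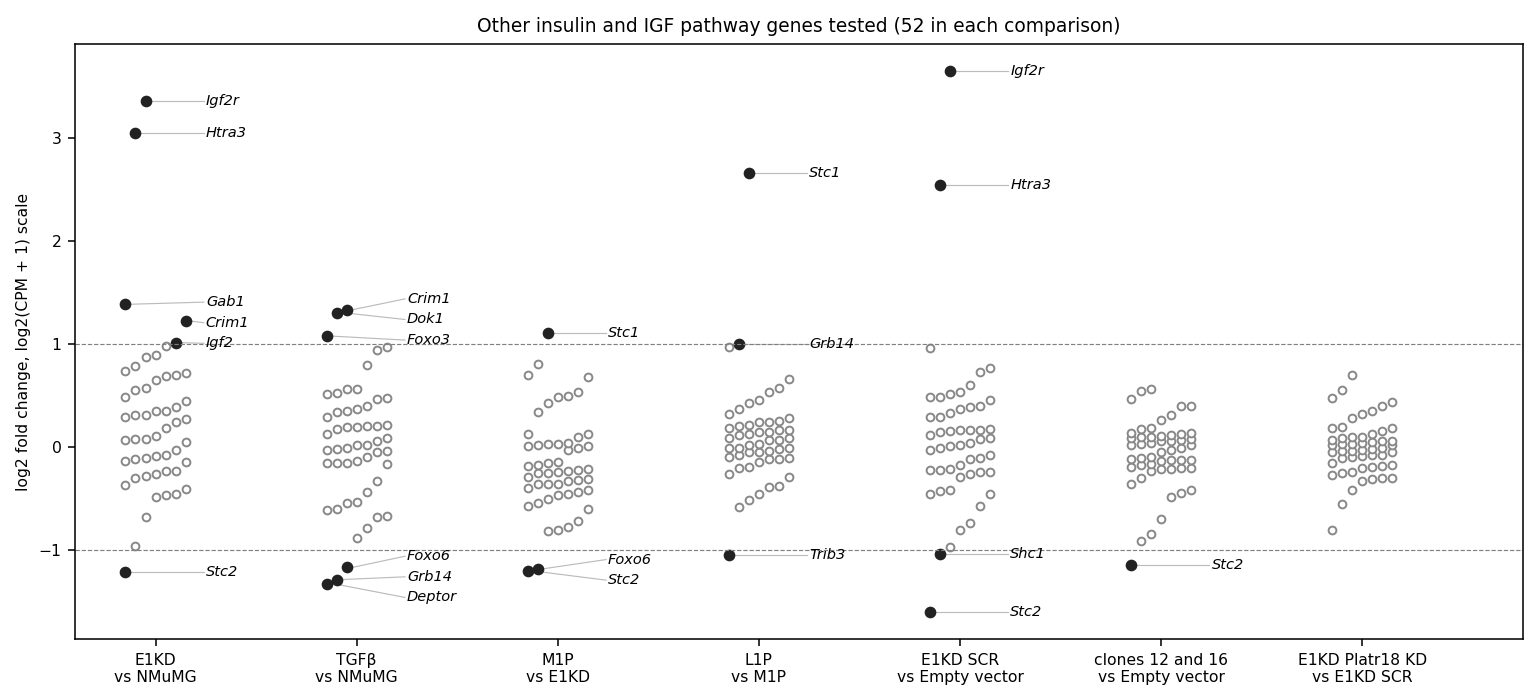
Log2 fold changes of the 52 other pathway genes tested in 7 comparisons, 1 point per gene; filled and named points passed both limits and dashed lines mark a log2 fold change of 1 in either direction. Igf2r and Htra3 are the highest points of both comparisons of cells silenced for hnRNP E1, and none is filled upon Platr18 silencing.

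For the 3 genes with the widest range, the genes of most similar pattern were sought over 10 condition means, centred within each kind of library, among 13385 genes. For Igfbp4 these were Fam83g (Pearson's r 0.994), Cmtm7 (0.992) and Micu2 (0.988). Micu2 was listed at 0 in all 10 libraries of cells silenced for hnRNP E1. For Irs1 they were Rab13 (0.940) and Usp30 (0.934), and for Igfbp3 Dolk (0.966), Ccdc136 (0.964) and Mplkip (0.961). Pearson's r does not measure the size of a change. Condition means ran from 3.33 to 6.31 CPM for Rab13 and 12.3 to 17.5 CPM for Usp30, against 0 to 34.8 CPM for Irs1. Those of Dolk ran from 7.56 to 23.9 CPM, of Ccdc136 from 3.20 to 8.77 CPM and of Mplkip from 9.63 to 13.3 CPM. Those of Igfbp3 ran from 3.87 to 66.9 CPM. The 10 means are few and 5 of them share the hnRNP E1 silencing, so these values only describe likeness in these libraries.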

How the data were processed

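Sequence of 20 RNA libraries came from a HiSeq2500. Reads were aligned by the authors with Bowtie2 (2.2.5 and GRCm38.p6 in the submitters' processing notes), quantified genes of the mouse M18 annotation by expectation maximization in Partek, and deposited CPM. A constant of 0.0001 in every one of the 54986 rows was subtracted from the levels printed. The CPM of a library sum to 54.7% to 79.7% of the total they were scaled to. Among values of at most 50 reads, 90.1% to 91.3% were whole within 0.05 read in the progression libraries and 97.1% to 97.7% in the others. Because the rest were not whole, no counts were rebuilt and count models were not applied. Floors of 3 reads cover counting error only.

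log2(CPM + 1) was modelled by limma 3.58.1 (R 4.3.3; eBayes with a trend) over all 20 libraries with a mean for each of 10 conditions, which left 10 residual degrees of freedom. The 17106 genes that reached 1 CPM in 2 or more libraries were tested, with Benjamini-Hochberg adjustment over all of them. Simulated data of this design were used to test the fit. The members and the lists of pathway genes were chosen with earlier results of these data known. In each comparison the text names all members and, of the other pathway genes past the limits, up to 4 in each direction with the largest change, and for each of the 3 members of widest range the 3 genes of highest r among those reaching 5 CPM in a condition, except for genes that are not reported here. Promoters came from RefSeq tables, and protein sequences were not analysed here. Python 3.11.15, numpy 2.4.6, pandas 2.3.3 and matplotlib 3.10.9 were used. Alternatives were another pseudocount (0.1), other filters, scalings, call rules and sets of libraries, a replicate block, and leaving out each library.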

Additional observations from a re-analysis of the deposited data

Results flagged for a closer look

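For 3 of the 8 genes tested, the libraries silenced for hnRNP E1 lay all on one side of their controls in the first kind of library and all on the other side in the second. This held for 6.23% of the 17106 genes tested. The 8 genes were picked with these comparisons known, so nothing is read from this count. Igf1r was at 0.30 in E1KD against NMuMG and -0.53 in E1KD SCR against the empty vector, Irs2 at 0.41 and -0.42, and Igfbp6 at -0.07 (SE 0.07) and 0.44. For Igfbp6 the E1KD value is within its error of 0 and rests on 11 to 18 reads a library, so that no opposite direction is shown. The difference was not tested for these genes. The E1KD value of Igf1r ranged from 0.14 to 0.46 when single libraries were left out. The median of all genes in that comparison, with all libraries in, was 0.17. The comparisons differ in the kind of library and in the added vectors, which cannot be told apart.

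The clones that overexpress Platr18 lay on opposite sides of the empty vector for 3 of the 8 genes, and for 21.5% of all genes tested. Nothing is read from this count either. The 3 genes were Insr at -0.68 in clone 12 and 0.16 in clone 16, Igfbp6 at 0.15 and -0.15 (SE 0.07 each, from 18 to 36 reads a library), and Igfbp7 at -0.96 and 0.22. The fitted differences, clone 16 minus clone 12, were 0.84 for Insr and 1.18 for Igfbp7, given without a p because the genes were selected on these data, and no value was past the limits against the empty vector. Lncenc1 was 3092 to 3096 CPM in clone 12 and 813 to 820 CPM in clone 16, and its part in these differences was not tested.

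Among the other pathway genes, Stc1 had a difference of -1.10 (SE 0.11) between the effect of silencing in E1KD (-0.14) and in E1KD SCR (0.95), with an adjusted p of 3.85e-06 in limma's interaction test. Between the clones limma gave a difference, clone 16 minus clone 12, of 2.59 for Stc2, -1.20 for Enpp1, -1.27 for Deptor and 1.01 for Foxo6.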

How the results depend on the processing

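No value of a member past the limits changed sign under any alternative, and of 1062 refitted fold changes 1052 kept their side of the limits. Igfbp3 with TGFβ was at 0.998 when libraries were rescaled to equal protein-coding sums, just under the limit, and Igfbp7 with TGFβ was not past the limit on p when only the compared libraries were fitted. Igfbp7 in E1KD SCR was at -1.02 with median-of-ratios factors. With a pseudocount of 0.1, Igfbp6 was at -1.26 with TGFβ and 1.04 in E1KD SCR, and Irs1 differed between the clones by 1.12, which made 2 members past the limits there instead of 1.

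Of the other pathway genes, a pseudocount of 0.1 gave 6 instead of 3 in L1P against M1P, 8 instead of 4 in E1KD SCR, 3 instead of 1 over the clones and 1 instead of 0 upon Platr18 silencing. Keeping genes with a mean of at least 5 CPM gave 1 in M1P against E1KD, 1 in L1P against M1P and 0 over the clones, with fewer genes tested. Fitting only the compared libraries gave 3 in E1KD against NMuMG and 1 in M1P against E1KD, with fewer residual degrees of freedom.

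Leaving out single libraries, with the lone sample of a condition assumed to vary like the others, moved the other pathway genes from 5 to 10 in E1KD against NMuMG and from 3 to 6 in M1P against E1KD, the higher count each time without E1KD replicate 2. Members past the limits ranged from 0 to 1 in M1P against E1KD, where Igfbp7 was at -1.003 without E1KD replicate 2. They ranged from 1 to 2 over the clones, where Igfbp3 was at -0.98 without empty vector replicate 2, and from 2 to 3 in E1KD SCR, where Igfbp3 was at 1.08 without empty vector replicate 2 and Igfbp7 at -1.0001 without E1KD SCR replicate 2.

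Rescaling to equal protein-coding sums moved the median of all genes in E1KD against NMuMG from 0.17 to 0.02 and the share of higher calls from 68.3% to 52.2%, and median-of-ratios factors gave 52.6%. In M1P against E1KD the share moved from 32.2% to 48.5% and 50.4%, and with TGFβ from 43.3% to 36.4% and 54.5%. The labels do not say whether the replicate numbers pair the libraries. Same-numbered libraries deviated together with correlations from -0.12 to 0.29, the highest between clone 12 and clone 16. With the number as a replicate block the members past the limits were 3 in E1KD, 4 with TGFβ and 2 over the clones, and it changed no call of a member. Crossing the numbers of clone 16, tried after the data were seen, also left 2 over the clones. Depth limits Igfbp2, Igfbp5, Igfbp6 and, in silenced cells, Igfbp4, which rest on few reads.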
